A study of Homo sapiens with 17 samples.

Results

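LNCaP is an established human prostate cancer line that depends on androgen. The comparison described here is that of LNCaP cells treated with a small interfering RNA against CREB1 (siCREB1) with LNCaP cells treated with a control siRNA (siControl). It rests on 4 columns of read counts per gene, 2 for each treatment, chosen by the line and the siRNA in their headers, out of 12 such columns in the series. These 4 columns belong to 2 of the 17 samples of the series, so 2 columns stand behind each sample. They are treated here as 2 libraries a group and are numbered 1 and 2 as in the headers.

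The series also holds the same siRNAs in LNCaP-abl, an androgen-independent subline of LNCaP, an siRNA against FOXA1 (siFOXA1) in both lines, and chromatin immunoprecipitation samples that are not analysed here. LNCaP cells of passages 32 to 34 were kept in medium with 10% fetal bovine serum. LNCaP-abl cells of passages 62 to 64 were kept in 10% charcoal-stripped serum, from which steroids are removed. Both lines were moved to 5% charcoal-stripped serum for treatment and received 40 nM of siControl, siCREB1 or siFOXA1 for 3 days, so the control cells too were transfected and kept in serum low in androgen. The labels do not say whether the 2 libraries of a group came from separate cultures, and the p-values below measure only the spread between these libraries.

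CREB1 is a transcription factor that binds the cAMP response element, whose full palindrome reads TGACGTCA. Protein kinase A, switched on by cAMP, phosphorylates CREB1, which then recruits the co-activators CREBBP and EP300; the CRTC proteins bind it as further co-activators. CREM and ATF1 are its closest relatives and can pair with it. In the prostate epithelium FOXA1 is known for opening chromatin to other transcription factors, and the title of the series names co-regulation by CREB1 and FOXA1 as the question of the study.

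Reads assigned to genes numbered 27555950 and 15200856 in the siControl libraries and 25700956 and 26428435 in the siCREB1 libraries. The no_feature line took 54.8 to 56.9% of the counts in these 4 tables and was left out. The libraries carried the markers of luminal prostate cells: the summed level of the luminal markers was 3144 and 2750 CPM (counts per 1000000 counts in genes, after TMM scaling of the library size) under siControl and 2906 and 3048 under siCREB1, and among them KRT8 had 636 and 518 CPM under siControl and 684 and 732 under siCREB1. Basal markers summed to at most 0.192 CPM, with KRT5 at 0 in all 4 libraries. Neutrophil markers summed to 6.25 CPM in siControl library 1 and to between 0.626 and 1.09 in the other 3; CSF3R had 76 counts in that library and 0 in the rest. Endothelial and blood markers summed to 31.7 and 28.7 CPM under siControl and 12.3 and 16.6 under siCREB1, with 849 and 433 counts of VWF under siControl and 322 and 433 under siCREB1, and fibroblast markers to 59.7 and 67.2 against 82.6 and 75.8, with COL1A2 at 0 counts. The part of these markers in the results below was not tested.

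CREB1 RNA was measured at 81 and 85.3 CPM under siControl and 38.7 and 29.8 under siCREB1, or 83.2 ± 3.09 and 34.3 ± 6.24 CPM (mean ± SD, n = 2 libraries each), so that 41.2% of the control level was left. The groups did not overlap, and the log2 change was -1.28 ± 0.10, edgeR adjusted p = 5.59e-07 (± is the standard error here and in the log2 changes that follow). In LNCaP-abl the same siRNA left 56.9% (log2 change -0.81), and the fall was larger in LNCaP by 0.47 ± 0.13 (difference of the changes -0.47, edgeR adjusted p = 0.0208). CREB1 RNA stood at 61.4 and 60.7 CPM in the siFOXA1 libraries of LNCaP. FOXA1 itself was at 799 and 695 CPM under siControl and 655 and 658 under siCREB1 (-0.19 ± 0.08, edgeR adjusted p = 0.0913), and was called lower without siControl library 2 (log2 change -0.28).

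Of 15550 genes tested, 5846 (37.6%) differed between siCREB1 and siControl in LNCaP at an edgeR quasi-likelihood adjusted p under 0.05. Among them 2770 were higher (17.8% of the genes tested) and 3076 lower (19.8%). The median log2 change over all tested genes was -0.002, and 202 genes rose and 434 fell by at least 1 on the log2 scale. Against these shares each gene group below has to be read, since calls in either direction were common.

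The largest rises among well-expressed genes were those of interferon-induced genes and of a few genes of other kinds. IFIT1, a protein that binds viral RNA, was at 5.02 and 2.88 CPM under siControl and 42.3 and 35.3 under siCREB1 (3.21 ± 0.34, edgeR adjusted p = 1.04e-05). DIO3, which inactivates thyroid hormone, was at 26.4 and 17.6 CPM under siControl and 125 and 105 under siCREB1 (2.36 ± 0.20), and GPNMB, a membrane glycoprotein, went from 25.4 and 22.5 to 87.6 and 72.8 CPM (1.73 ± 0.28). Genes were named here only where the groups did not overlap, so the siCREB1 libraries of each lie above both controls by that choice. RSPO1, a secreted enhancer of Wnt signalling, rose from 6.21 and 18.9 to 34.7 and 29.4 CPM (1.47), MYLIP, a ligase that marks the LDL receptor for degradation, from 16.5 and 14 to 42.5 and 35.7 CPM (1.34), and GLYATL2, an acyltransferase, from 4.98 and 5.38 to 13.9 and 10.9 CPM (1.27). RSPO1 was the least even of these, with its siControl libraries far apart.

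Among the 12 largest falls, 9 were of genes in the mitosis lists below (TOP2A, CENPF, BIRC5, CDC20, PLK1, MKI67, NUSAP1, RACGAP1 and CDK1). TOP2A, the topoisomerase that untangles chromosomes before they separate, was at 49.4 and 47.5 CPM under siControl and 2.58 and 3.98 under siCREB1 (-3.88 ± 0.19, edgeR adjusted p = 1.41e-08). OR51E1, an olfactory receptor gene expressed in prostate, fell from 32 and 36.5 to 4.82 and 7.88 CPM (-2.42); in LNCaP-abl its log2 change was 0.23, and in the LNCaP siFOXA1 libraries it stood at 0.927 and 1.84 CPM. The 12 largest changes each way were taken only from called genes whose groups did not overlap. Their separation in the plot of levels by library is given by that choice.

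**Figure D1:**
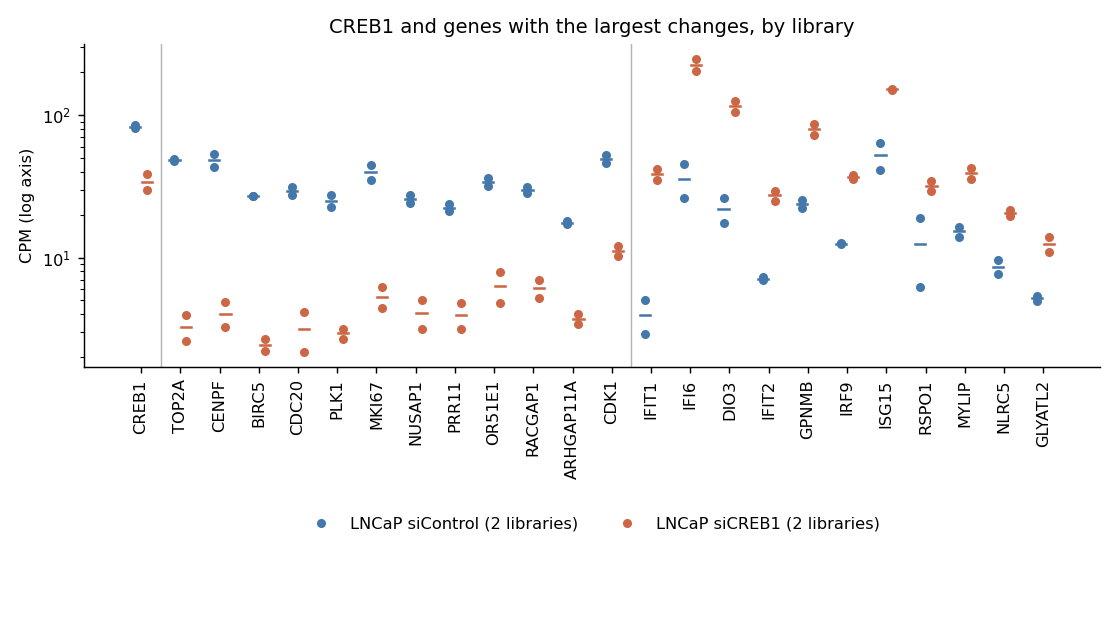
Level of CREB1, of the 12 genes with the largest falls and of genes with the largest rises, in CPM on a log axis, with 1 point for each siControl and siCREB1 library of LNCaP and a line at the mean of each group of 2. Apart from CREB1, genes were drawn only where the groups did not overlap. TOP2A lies at 49.4 and 47.5 under siControl and between 2.58 and 3.98 under siCREB1.

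Genes of mitosis fell as a body. All 14 tested mitotic kinases and cyclins fell (median log2 change -2.25), 20 of 21 kinesins and spindle proteins (-2.22), 25 of 30 kinetochore and passenger proteins (-1.54), all 10 cytokinesis proteins (-2.99) and 18 of 21 condensin, cohesin and separation genes (-0.96), where 19.8% of all tested genes fell. None of the first 4 lists held a gene that rose; in the last, NCAPH2, a condensin II subunit, was the gene that rose (0.25). NCAPH2 was not called without siControl library 2 or siCREB1 library 2 (log2 change 0.20 to 0.23). In bulk RNA, fewer dividing cells and less of these RNAs in each dividing cell cannot be told apart.

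PLK1, the kinase that drives entry into and passage through mitosis, was at 27.6 and 22.6 CPM under siControl and 2.69 and 3.17 under siCREB1 (-3.11 ± 0.19, edgeR adjusted p = 1.06e-07). CDC20, which activates the anaphase-promoting complex, was at 31.3 and 27.6 CPM under siControl and 2.17 and 4.12 under siCREB1 (-3.23 ± 0.24). CDK1, the central mitotic kinase, was at 52.3 and 46.1 CPM under siControl and 10.3 and 12.1 under siCREB1 (-2.14 ± 0.13). Library 1 was the lower of the siCREB1 pair in each of these 3 genes, which were chosen among genes whose groups did not overlap. CCNA2, the cyclin of S phase and early mitosis, fell from 16.7 and 16.5 to 4.34 and 4.01 CPM (-1.99), and CCNB1, the cyclin partner of CDK1, from 54.7 and 55.6 to 21.6 and 23.9 CPM (-1.28). AURKB, the kinase of the passenger complex, fell from 4.84 and 5.51 to 0.773 and 1.2 CPM (-2.37) and its partner BIRC5 (survivin) from 27.3 and 26.9 to 2.21 and 2.66 CPM (-3.47 ± 0.19). Among the 14 mitotic kinases and cyclins the log2 change ran from -0.40 for MASTL, an inhibitor of a mitotic phosphatase, to -3.34 for PBK. MASTL was not called without siControl library 2 or siCREB1 library 2 (log2 change -0.34 to -0.33). It also lost its call by DESeq2 and in a fit of the 4 libraries alone (-0.38 in both).

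At the kinetochore, where chromosomes meet the spindle, CENPF fell from 53.3 and 43 to 3.24 and 4.85 CPM (-3.58) and NDC80, the microtubule-binding subunit, from 12 and 10.6 to 1.55 and 1.35 CPM (-2.97 ± 0.14, edgeR adjusted p = 1.34e-08). CENPL and CENPO were not called (-0.17 and -0.12), nor was SKA2 (-0.30), which was called lower with no filter on low counts, with the 6 LNCaP libraries alone and with the replicate block (-0.30 to -0.29). Kinesins fell widely: KIF14 went from 10.7 and 9.67 to 0.7 and 1.24 CPM (-3.39) and KIF4A from 13.8 and 13.7 to 1.22 and 1.57 CPM (-3.30), while KIF22, the chromosome-arm kinesin, was at 37.8 and 38.2 CPM under siControl and 39.5 and 37.1 under siCREB1 (0.01, not called). In cytokinesis the range was from -1.43 for ECT2, which activates RhoA at the cleavage site, to -3.80 for IQGAP3; RACGAP1, the partner of ECT2, fell from 31.2 and 28.4 to 5.23 and 6.93 CPM (-2.30) and CEP55, an abscission factor, from 8.6 and 8.26 to 0.331 and 1.02 CPM (-3.63). Subunits of the cohesin ring fell, and so did genes that control its opening. SMC1A fell from 153 and 145 to 84.9 and 93 CPM (-0.75) and SMC3 from 96.4 and 98.1 to 71.2 and 79.9 CPM (-0.36), whereas PTTG1 (securin) fell from 13.2 and 16.5 to 1.51 and 2.26 CPM (-2.96) and UBE2C, a ubiquitin-conjugating enzyme of the anaphase-promoting complex, from 11.2 and 11 to 0.884 and 2.01 CPM (-2.93).

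Promoter sequences are shown for 4 of these genes because their falls carry the result and their start regions hold elements named for cell-cycle or cAMP control. They are the 250 bases before each start in RefSeq, build GRCh38.p14, written 5′ to 3′ on the strand of the gene: PLK1 at chr16:23678639-23678888, plus strand, CDC20 at chr1:43358731-43358980, plus strand, CCNA2 at chr4:121823884-121824133, minus strand and NDC80 at chr18:2571307-2571556, plus strand. For PLK1 and CDC20 capitals mark matches to the cell cycle genes homology region (CHR), searched as TTTGAA or TTCGAA on both strands. For CCNA2 and NDC80 capitals mark the full cAMP response element TGACGTCA.
PLK1: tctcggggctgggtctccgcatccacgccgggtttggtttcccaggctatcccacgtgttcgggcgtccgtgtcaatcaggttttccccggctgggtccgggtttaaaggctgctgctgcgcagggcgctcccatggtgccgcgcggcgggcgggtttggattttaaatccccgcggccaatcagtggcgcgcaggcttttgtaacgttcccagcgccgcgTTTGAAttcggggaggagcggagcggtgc
CDC20: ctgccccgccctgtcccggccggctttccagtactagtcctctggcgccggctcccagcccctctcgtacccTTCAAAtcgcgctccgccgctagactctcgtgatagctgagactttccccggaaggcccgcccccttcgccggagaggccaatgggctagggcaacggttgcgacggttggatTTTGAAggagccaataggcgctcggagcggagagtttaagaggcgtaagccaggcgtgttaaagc
CCNA2: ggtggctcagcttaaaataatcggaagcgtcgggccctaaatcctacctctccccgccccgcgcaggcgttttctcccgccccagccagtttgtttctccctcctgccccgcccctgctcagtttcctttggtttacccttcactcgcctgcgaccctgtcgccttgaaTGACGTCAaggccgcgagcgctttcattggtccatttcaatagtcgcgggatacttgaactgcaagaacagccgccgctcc
NDC80: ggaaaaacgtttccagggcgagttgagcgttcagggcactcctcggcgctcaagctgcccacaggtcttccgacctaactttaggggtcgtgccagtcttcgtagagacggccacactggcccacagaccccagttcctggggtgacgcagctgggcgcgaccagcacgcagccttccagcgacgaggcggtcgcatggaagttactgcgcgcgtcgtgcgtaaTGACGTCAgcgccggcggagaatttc

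The cAMP response element began 81 bases before the start of CCNA2 and 26 before that of NDC80, and the CHR matches 29 bases before the start of PLK1 and 178 and 65 before that of CDC20. Over the 5 mitosis lists, 80 of 96 tested genes had a RefSeq promoter window (250 bases before to 50 after the start). A CHR match was present in 59 of these 80 windows (73.8%), against 16.6% of all 27305 promoter windows of the same length and 11.4% of the 11721 windows of tested genes, which stand for 75.4% of the genes tested. The full cAMP response element was present in 7 of the 80 (8.75%, exact Clopper-Pearson 95% interval 3.59 to 17.2%), against 1.98% of all windows and 3.1% of those of tested genes; the 7 were CCNA2, CENPE, CENPW, KIF15, MASTL, NDC80 and PRC1. Their log2 changes spanned -0.40 for MASTL to -2.97 for NDC80, with -2.15 for CENPE, -1.28 for CENPW, -2.19 for KIF15 and -1.50 for PRC1, inside the range of the other mitosis genes. Matches are letters in a window and were not tested as binding sites.

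**Figure D2:**
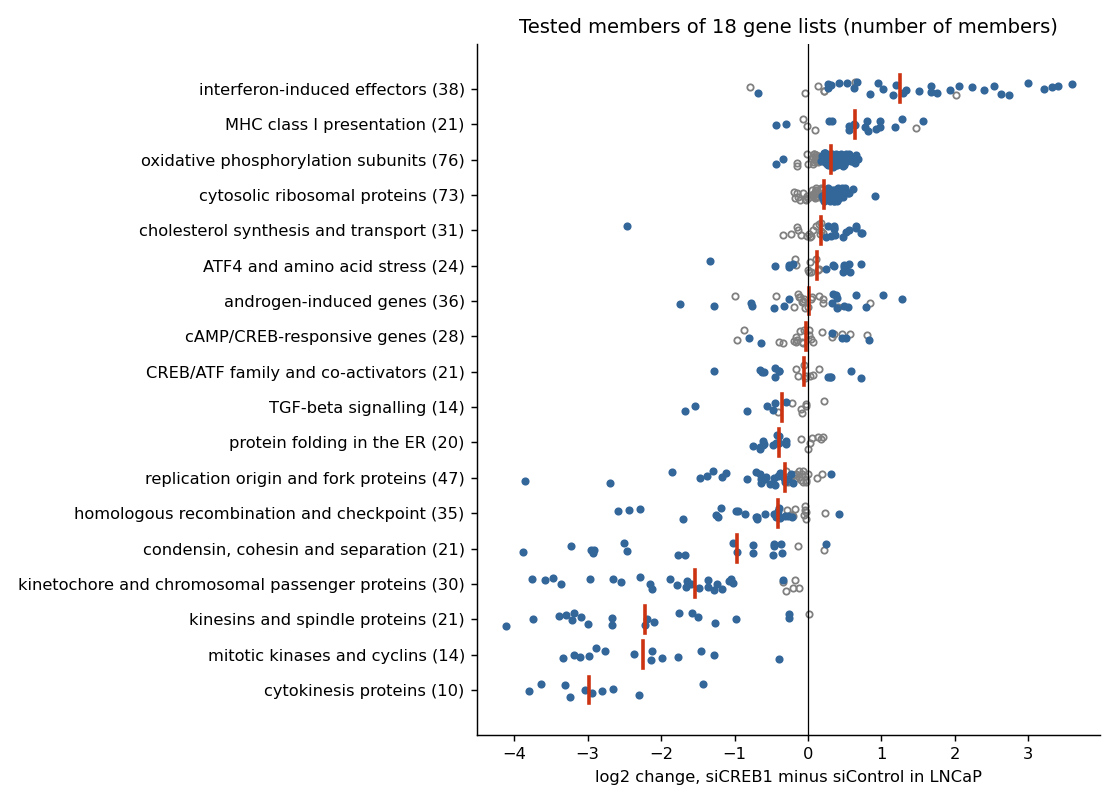
Log2 change of siCREB1 against siControl in LNCaP for every tested member of 18 gene lists; 1 point is 1 gene, filled where called at an adjusted p under 0.05 and open where not, and the red line is the median of the list. The 5 mitosis lists lie mostly below 0, with medians from -2.99 to -0.96, the interferon-induced effectors lie mostly above it with a median of 1.25.

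The regulators upstream of mitosis moved in the same direction in part. Of 20 tested E2F, MYB, FOXM1 and pocket-protein genes 13 fell and 4 rose (median -0.43). MYBL2, a MYB protein that helps to switch on G2 genes, was at 23.1 and 19.5 CPM under siControl and 1.69 and 2.48 under siCREB1 (-3.36 ± 0.21, edgeR adjusted p = 1.09e-07). FOXM1, which acts after it, fell from 54.4 and 52.3 to 16.1 and 17.5 CPM (-1.67), E2F1 from 9.06 and 6.92 to 2.72 and 4.49 CPM (-1.17), and the repressive E2F7 from 2.13 and 2.31 to 0.368 and 0.365 CPM (-2.57). E2F4, E2F6, LIN37 and LIN52 were the 4 that rose, by 0.29, 0.25, 0.34 and 0.28. E2F4 was not called without siControl library 1 or siCREB1 library 2 (log2 change 0.19 to 0.25). E2F6 was not called without either siControl library or siCREB1 library 1 (log2 change 0.14 to 0.26). Nor was E2F6 called by DESeq2, with no filter on low counts, or in fits of the 6 or 4 LNCaP libraries alone (0.25 to 0.27). LIN37 and LIN52 were not called with any 1 of the 4 libraries left out (log2 change 0.31 to 0.40 for LIN37, 0.24 to 0.32 for LIN52). By DESeq2 and in the fit of the 4 libraries alone neither was called (0.36 and 0.355 for LIN37, 0.298 and 0.294 for LIN52). LIN52 also lost its call with no filter, with the 6 LNCaP libraries alone and with the replicate block (0.28 to 0.29).

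Among 23 tested G1 cyclins, CDKs and inhibitors 10 fell and 5 rose (median -0.23). These are 43.5% and 21.7%, where 19.8% of all tested genes fell and 17.8% rose. CCND1 (cyclin D1) was at 316 and 298 CPM under siControl and 113 and 120.1 under siCREB1 (-1.40 ± 0.09, edgeR adjusted p = 1.06e-07), while CCND3 rose from 49 and 42.7 to 56.4 and 58.7 CPM (0.32) and CDK4 was not called (0.02). The phosphatase CDC25C fell from 3.97 and 5.77 to 0.552 and 0.949 CPM (-2.64) and CDC25B from 26.7 and 29.8 to 12.3 and 13.6 CPM (-1.12). Of the CDK inhibitors, CDKN1A (p21) was at 133 and 122 CPM under siControl and 171 and 184 under siCREB1 and was not called (0.48 ± 0.25, edgeR adjusted p = 0.157), and CDKN1B (p27) was at 106 and 94.1 CPM under siControl and 100.3 and 91.2 under siCREB1 (-0.06, not called). The other rises were CDC25A (0.35), CDKN2A (0.38), CDKN2B (0.41) and CDKN2D (0.48). The 5 rises in this list were not firm. In a fit of the 4 libraries alone CDC25A, CDKN2A, CDKN2B and CDKN2D were not called, and by DESeq2 CDC25A and CDKN2B were not. CDC25A also lost its call with the 6 LNCaP libraries alone and with the replicate block (0.36 to 0.37). Each of these genes lost its call with some single libraries left out (log2 change 0.21 to 0.50). CDKN1A was called higher in the fits of the 4 and of the 6 LNCaP libraries alone (log2 change 0.50 in both). It was also called higher with no filter on low counts and with the replicate block (0.48 in both).

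DNA replication genes fell in LNCaP, and their change differed between the lines. In LNCaP 27 of 47 tested replication origin and fork genes fell and 1 rose, RPA2 (0.31), with a median of -0.31; in LNCaP-abl 21 rose and 8 fell (median 0.21), where 27.5% of all tested genes rose and 23.7% fell. The test of the difference between the lines called 25 of the 47 lower in LNCaP and 2 higher, against 14.8% and 10.8% of all tested genes. The helicase subunit MCM2 fell from 59.4 and 55 to 39 and 41.3 CPM in LNCaP (-0.51) and rose in LNCaP-abl from 45.4 and 45.1 to 74.9 and 73 CPM (0.71). CDC45, which joins the helicase at the fork, went from 4.95 and 3.97 to 0.405 and 0.985 CPM (-2.69) in LNCaP and from 2.69 and 3.57 to 7.08 and 5.39 CPM in LNCaP-abl (1.08). Of 18 nucleotide supply and chromatin assembly genes 12 fell and none rose in LNCaP (median -0.39), and 7 rose and 5 fell in LNCaP-abl (median -0.007); the difference between the lines was called lower in LNCaP for 8 and higher for 4. TK1, thymidine kinase, was at 38.6 and 35.7 CPM under siControl and 17.9 and 21.2 under siCREB1 (-0.93) and changed by 0.65 in LNCaP-abl, and UHRF1, the factor that copies DNA methylation, fell by 1.03 and rose by 1.42. Among 42 replication genes with a promoter window, 20 (47.6%) held an E2F-like core (TTCCCGCC, TTTCCCGC or TTTGGCGC, both strands), against 4.61% of all windows and 7.05% of those of tested genes. In the 250 bases before the start alone 14 (33.3%) held it, against 3.98% and 6.14%. RPA2 was not called without siCREB1 library 1 (log2 change 0.25).

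Homologous recombination and checkpoint genes fell in 23 of 35 cases with 1 rise, RAD51C (0.42). BARD1, the partner of BRCA1, was at 171 and 164 CPM under siControl and 67.7 and 72.8 under siCREB1 (-1.25 ± 0.06, edgeR adjusted p = 1.63e-08) and had a log2 change of 0.05 in LNCaP-abl. BRCA1 itself fell from 12.9 and 13.5 to 3.35 and 4.74 CPM (-1.70), EXO1, a DNA end-resecting nuclease, from 2.17 and 2.5 to 0.368 and 0.474 CPM (-2.43), and the kinase ATM from 60.1 and 51.3 to 37.1 and 37.8 CPM (-0.58). The mismatch repair gene PMS2 was not called (-0.02). RAD51C was not called without siControl library 2 or either siCREB1 library (log2 change 0.40 to 0.44).

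Interferons signal through JAK kinases to STAT proteins and IRF9, which bind the interferon-stimulated response element (ISRE) of their target genes. Of 38 tested interferon-induced effectors 30 rose with siCREB1 in LNCaP and 1 fell (median 1.25). IFI6, a mitochondrial and endoplasmic reticulum protein, was at 45.6 and 26.3 CPM under siControl and 250.1 and 203 under siCREB1 (2.63 ± 0.23, edgeR adjusted p = 1.96e-06). ISG15, the ubiquitin-like modifier, was at 63.8 and 41 CPM under siControl and 151 and 153 under siCREB1 (1.52 ± 0.23), and IFIT2 and IFIT3 rose from 7.26 and 6.92 to 29.5 and 25.2 CPM (1.94) and from 3.36 and 3.08 to 21.5 and 16.1 CPM (2.53). Every siCREB1 library was above every siControl library for these genes, which for IFI6, ISG15 and IFIT2 was a condition of their choice. The higher control was siControl library 1 in each. OAS1, which senses double-stranded RNA, rose from 2.06 and 1.6 to 13.8 and 11.3 CPM (2.73), IFITM1, an entry restriction factor, from 1.44 and 1.67 to 8.21 and 6.27 CPM (2.24), and MX1, an antiviral GTPase, from 4.55 and 4.68 to 7.59 and 7 CPM (0.66). RNF213 was the member that fell, from 286 and 189.8 to 143 and 155 CPM (-0.68). The 7 not called were IFIT5, IFITM2, MX2, SAMD9L, PARP14, EPSTI1 and LGALS3BP. Between 25 and 31 of the 38 rose in every alternative fit, and 26 without siControl library 1.

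The promoters of IFIT1 (chr10:89392373-89392622, plus strand) and IFI6 (chr1:27672193-27672442, minus strand), the pair with the largest rises among well-expressed genes, are shown as the 250 bases before the start in RefSeq, GRCh38.p14, 5′ to 3′ on the strand of the gene. Capitals mark matches to the ISRE core GAAANNGAAA on either strand.
IFIT1: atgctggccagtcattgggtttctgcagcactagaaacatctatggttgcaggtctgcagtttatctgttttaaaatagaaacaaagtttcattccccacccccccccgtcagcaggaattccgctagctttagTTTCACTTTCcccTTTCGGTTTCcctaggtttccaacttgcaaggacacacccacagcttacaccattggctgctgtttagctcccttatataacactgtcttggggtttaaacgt
IFI6: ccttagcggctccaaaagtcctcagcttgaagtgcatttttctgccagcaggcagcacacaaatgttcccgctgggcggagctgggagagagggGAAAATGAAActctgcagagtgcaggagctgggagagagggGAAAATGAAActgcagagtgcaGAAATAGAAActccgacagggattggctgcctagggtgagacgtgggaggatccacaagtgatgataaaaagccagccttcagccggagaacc

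IFIT1 held 2 matches and IFI6 held 3, the nearest beginning 103 bases before the start of IFIT1 and 93 before that of IFI6. Of 31 effectors with a promoter window 22 (71.0%) held such a core, against 3.65% of all 27305 windows and 2.89% of those of tested genes. In the 250 bases before the start alone 20 (64.5%) held it, against 3.07% and 2.43%. None of the 31 held the full cAMP response element, which with 0 of 31 allows a share of up to 11.2% (exact Clopper-Pearson 95% upper bound).

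Genes that carry the signal moved in both directions. IRF9 rose from 12.6 and 12.4 to 38 and 35.8 CPM (1.56 ± 0.11, edgeR adjusted p = 4.54e-07), IRF7 from 20.6 and 15.1 to 34.6 and 36.3 CPM (0.96) and STAT2 by 0.28. The receptor chain IFNAR1 fell from 99.7 and 97.6 to 72.3 and 70.9 CPM (-0.46) and JAK2 by 0.32, while the kinase TYK2 rose by 0.35. Of the feedback inhibitors, SOCS1 rose from 1.37 and 0.897 to 2.54 and 3.36 CPM (1.31) and SOCS3 fell from 1.73 and 1.6 to 0.81 and 0.693 CPM (-1.15). Over the whole list of 28 ligands, receptors, JAKs, STATs and IRFs 9 rose and 4 fell (median 0.11). These are 32.1% and 14.3%, against 17.8% and 19.8% of all tested genes. IFNB1 (interferon beta) had 0 counts in all 4 libraries, which allows up to 3 counts in each. IL29 (interferon lambda) was at 0.108 and 0.0641 CPM under siControl and 0.184 and 0.073 under siCREB1. Among 12 RNA and DNA sensors, 4 rose, IFIH1 (0.80), TLR3 (1.14), DDX58 (0.48) and the kinase IKBKE (0.63), and the adaptor MAVS fell from 311 and 303 to 206 and 221 CPM (-0.52). Of 15 chemokine and NF-kappaB feedback genes, CXCL11, NFKBIA, NFKBIB and NFKBIE rose (2.08, 0.40, 0.44 and 0.50) and TNFAIP2 fell (-1.28). STAT2, DDX58 and TNFAIP2 were not called without siControl library 1 or siCREB1 library 1 (log2 change 0.18 to 0.22 for STAT2, 0.42 to 0.43 for DDX58, -1.01 to -0.93 for TNFAIP2). JAK2 was not called without siControl library 1 or siCREB1 library 2 (log2 change -0.29 to -0.15). SOCS1 was not called without siCREB1 library 2 (log2 change 1.10). SOCS3 was not called without siControl library 1 or either siCREB1 library (log2 change -1.27 to -1.05). DESeq2 called neither SOCS3 (-1.13) nor TNFAIP2 (-1.24). CXCL11 was not called without either siControl library or siCREB1 library 1 (log2 change 1.50 to 2.43). NFKBIE was not called without siControl library 2 or either siCREB1 library (log2 change 0.32 to 0.55). In the fit of the 4 libraries alone NFKBIE, STAT2 and JAK2 were not called (0.52, 0.30 and -0.31).

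Genes of antigen presentation by MHC class I rose with them, 15 of 21 higher and 2 lower (median 0.64). B2M, the shared light chain, was at 232 and 217 CPM under siControl and 504 and 382 under siCREB1 (0.98 ± 0.16, edgeR adjusted p = 3.77e-04), and NLRC5, the transactivator of class I genes, at 7.62 and 9.67 CPM under siControl and 21.5 and 19.7 under siCREB1 (1.28). HLA-B rose from 102 and 81.2 to 186 and 165 CPM (0.93) and HLA-C by 0.81; class I genes share near-identical stretches, and how reads were split among them is uncertain. The immunoproteasome subunit PSMB9 rose by 1.57 and the peptide transporter TAP1 by 0.56. The 2 that fell were the chaperones CANX, from 687 and 702 to 523 and 503 CPM (-0.44), and CALR (-0.30). PSMB9 was not called without siControl library 1 or siCREB1 library 1 (log2 change 0.97 to 1.33).

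In LNCaP-abl the interferon response was not seen to the same extent. There 7 of the 38 effectors rose and 2 fell (median 0.13), with log2 changes of 0.10 for IFIT1, -0.23 for IFI6 and 0.01 for IRF9. The difference between the lines was called for 19 of the 38, all of them higher in LNCaP, against 10.8% of all tested genes. For MHC class I genes it was called higher in LNCaP for 8 of 21 and lower for 1. The siFOXA1 libraries of LNCaP held still higher levels than the siCREB1 libraries: IFIT1 200.1 and 201 CPM, IFI6 558 and 570.4, ISG15 594 and 579, IL29 3.37 and 3.17 and IFNB1 0.506 and 0.803. A direct test of siCREB1 against siFOXA1, which uses no control library, called 34 of the 38 effectors and 16 of the 21 class I genes lower with siCREB1, against 22.5% of all tested genes. The plot of interferon genes over the 3 LNCaP groups shows this order. The siControl libraries are shared by both siRNA comparisons in LNCaP, and siControl library 1, which held most of the neutrophil marker counts, was the higher control for IFIT1, IFI6 and ISG15; the part of either in these changes was not tested.

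**Figure D3:**
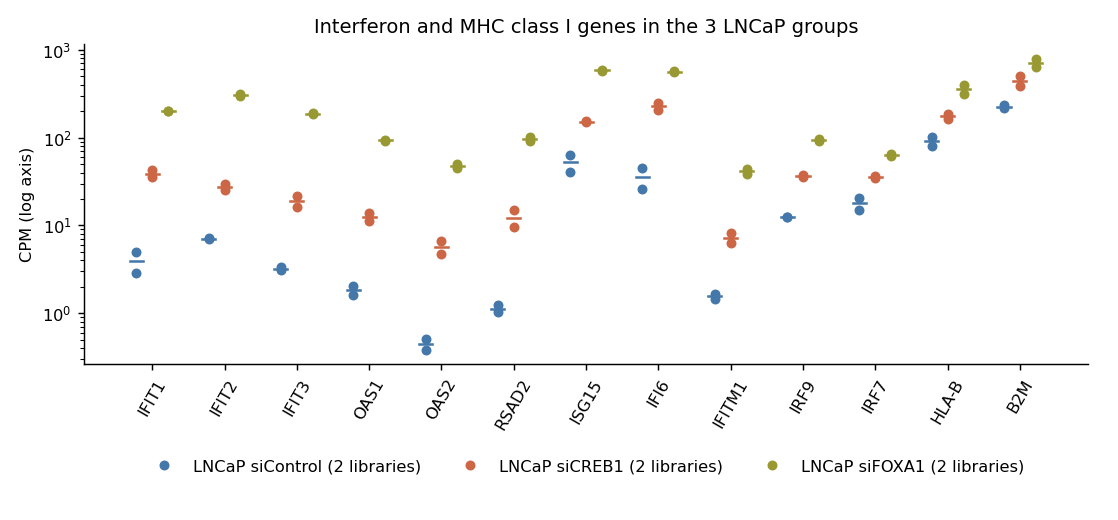
Level of 13 interferon-related genes in CPM, on a log axis, in the siControl, siCREB1 and siFOXA1 libraries of LNCaP, 1 point per library. IFIT1 runs from 2.88 to 5.02 under siControl, 35.3 to 42.3 under siCREB1 and 200.1 and 201 under siFOXA1.

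CREB1 and its relatives and partners, taken as 1 list, changed in both directions, 5 of 21 tested higher and 8 lower (median -0.06). These are 23.8% and 38.1%, against 17.8% and 19.8% of all tested genes. The targeted CREB1 is itself among the 8 that fell. ATF1 fell from 25.1 and 30.2 to 21.9 and 18.4 CPM (-0.44) and CREM rose from 16.4 and 16.7 to 25.5 and 24.2 CPM (0.59). ATF2 fell from 40.7 and 43.1 to 25.8 and 27.3 CPM (-0.65) and CREB3L2, a membrane-bound member, by 0.63. The histone acetyltransferase EP300 fell from 179 and 144 to 96.9 and 117 CPM (-0.60) and CREBBP from 171 and 129 to 105 and 125 CPM (-0.39). CRTC1, CRTC2 and CRTC3 were not called (-0.05, -0.14 and -0.03). ATF3, an early stress-induced repressor, rose from 25 and 25.6 to 41.3 and 42.3 CPM (0.73). ATF1 was not called without siControl library 2 or siCREB1 library 2 (log2 change -0.32). CREBBP was not called without siControl library 1 or siCREB1 library 1 (log2 change -0.27 to -0.14).

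Genes known to respond to cAMP through CREB showed no common direction in LNCaP, with 4 of 28 tested higher and 2 lower (median -0.02), where 17.8% and 19.8% of all tested genes were called. SIK1, a salt-inducible kinase, rose from 10.0 and 8.46 to 18 and 15.3 CPM (0.83) and DUSP1, a MAP kinase phosphatase, from 31.5 and 28 to 41 and 44.3 CPM (0.51), with NFIL3 and CITED2 the other rises (0.33 and 0.47). NR4A2, an orphan nuclear receptor, fell from 18.8 and 16.1 to 12.1 and 10.4 CPM (-0.65), and so did PDE4D, a cAMP phosphodiesterase, from 17.4 and 20.2 to 11.9 and 9.49 CPM (-0.80). FOS was low, at 1.16 and 1.02 CPM under siControl and 0.663 and 0.547 under siCREB1, and not called (-0.86 ± 0.36, edgeR adjusted p = 0.0771), although it was called lower with the replicate block (log2 change -0.89); NR4A1, PER1 and EGR1 were not called either (0.01, -0.08 and -0.11). The count of 4 rises grew to 8 with no filter on low counts and to 7 by DESeq2, with the replicate block or without siControl library 1. DUSP1 was not called without siCREB1 library 2 (log2 change 0.46). NFIL3 was not called without siControl library 2 or either siCREB1 library (log2 change 0.25 to 0.34). CITED2 was not called without siControl library 2 or siCREB1 library 1 (log2 change 0.22 to 0.43), nor in the fit of the 4 libraries alone (0.48). The full cAMP response element was found in the windows of DUSP1 and VGF among 26 with a window (7.69%), and its core TGACG in 17 (65.4%), against 25% of all windows and 33% of those of tested genes. Over all calls in LNCaP, the full element was in 78 of 2249 windows of genes that rose (3.47%) and 72 of 2469 of genes that fell (2.92%), and the core in 33.5% and 34.1%. These shares lie near those over the windows of all tested genes, 3.1% for the full element and 33% for the core. For genes that fell in both lines the core was in 36.8% (exact Clopper-Pearson 95% interval 34.3 to 39.4%), and for genes that rose in both in 32.9%. By list, the core was in 45% of mitosis, 47.6% of replication, 37.5% of oxidative phosphorylation and 16.1% of interferon effector windows.

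Of 27 tested protein kinase A, cyclase and phosphodiesterase genes 4 rose and 7 fell (3 without siCREB1 library 2). The 4 rises and 7 falls are 14.8% and 25.9% of the list, against 17.8% and 19.8% of all tested genes. The catalytic subunit PRKACA was not called (0.01) and PRKACB fell from 1683 and 1698 to 1489 and 1257 CPM (-0.30). The regulatory subunit PRKAR1A fell from 392 and 413 to 304 and 268 CPM (-0.49) and PRKAR1B rose from 33.9 and 32.1 to 45 and 47.4 CPM (0.48). PRKACB was not called without siCREB1 library 2 (log2 change -0.18), nor in the fit of the 4 libraries alone (-0.28).

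The ATF4 program raises amino acid synthesis and transport under stress, and its genes changed differently in the lines. In LNCaP 10 of its 24 tested genes rose and 5 fell (median 0.12); in LNCaP-abl 2 rose and 22 fell (median -1.61), and the difference was called higher in LNCaP for 21 and lower for 1. ATF4 itself was at 237 and 249 CPM under siControl and 243 and 250.5 under siCREB1 in LNCaP (0.02, not called) and fell from 1337 and 1305 to 597 and 561 CPM in LNCaP-abl (-1.19). DDIT3 (CHOP) rose from 31.5 and 36.5 to 50.7 and 50.2 CPM in LNCaP (0.58) and fell from 275 and 344 to 62.8 and 56.2 CPM in LNCaP-abl (-2.37; difference 2.95 ± 0.16, edgeR adjusted p = 5.64e-08). The controls already differed: LNCaP-abl under siControl held more RNA of both genes than LNCaP under siControl, and after siCREB1 the lines lay nearer. PSAT1, an enzyme of serine synthesis, was at 173 and 172 CPM under siControl and 222 and 219 under siCREB1 (0.35) and went from 739.9 and 795 to 232 and 220.4 CPM in LNCaP-abl (-1.76). NUPR1, a stress-induced chromatin protein, rose from 138 and 137 to 202 and 203 CPM (0.56) against a change of -1.30 in LNCaP-abl. SLC7A11, the cystine transporter, fell in both lines, from 69.3 and 71.1 to 30.5 and 25.1 CPM in LNCaP (-1.34) and by 3.38 in LNCaP-abl. The 5 that fell in LNCaP were SLC7A11, MTHFD2, ASNS, PHGDH and STC2, and 3 of the list fell without siControl library 2 or siCREB1 library 1. ASNS was not called without siControl library 2 or siCREB1 library 1 (log2 change -0.23 to -0.20). STC2 was not called with any 1 of the 4 libraries left out (log2 change -0.23 to -0.18). Nor was STC2 called by DESeq2, with RLE scaling, or in fits of the 6 or 4 LNCaP libraries alone (-0.189 to -0.185).

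Genes of protein folding in the endoplasmic reticulum, chaperones among them, fell in both lines and fell further in LNCaP-abl. In LNCaP 13 of 20 fell and none rose (median -0.40), and in LNCaP-abl 19 of 20 fell (median -1.06). The difference between the lines was called higher in LNCaP for 18. HSPA5 (BiP) was at 879 and 825 CPM under siControl and 647 and 651 under siCREB1 (-0.39 ± 0.08, edgeR adjusted p = 0.00174) and went from 1698 and 1675 to 736 and 626 CPM in LNCaP-abl (-1.31). XBP1, the spliced factor of the unfolded protein response, fell from 180.0 and 171 to 108 and 101 CPM (-0.74), SEL1L, a subunit of the degradation complex, from 305 and 283 to 195 and 189 CPM (-0.61), and HYOU1 from 428 and 417 to 274 and 282 CPM (-0.60). Amino acid transporters fell in 8 of 15 cases and rose in 3; SLC7A5, which carries leucine, went from 13.7 and 12 to 5.52 and 5.4 CPM (-1.25) and SLC38A2 from 369.6 and 379.5 to 245 and 247 CPM (-0.61), while the heavy chain SLC3A2 rose from 146 and 150.0 to 226 and 207 CPM (0.55). Of 20 cytosolic tRNA synthetases 3 rose and 4 fell in LNCaP, CARS (0.35), HARS (0.18) and YARS (0.20) being the rises, against 5 and 12 in LNCaP-abl. HARS was not called without siControl library 2 or siCREB1 library 2 (log2 change 0.16). YARS was not called without siControl library 1 or either siCREB1 library (log2 change 0.18 to 0.22). In the fit of the 4 libraries alone neither HARS nor YARS was called (0.195 and 0.219). HARS also lost its call with no filter on low counts (0.18).

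**Figure D4:**
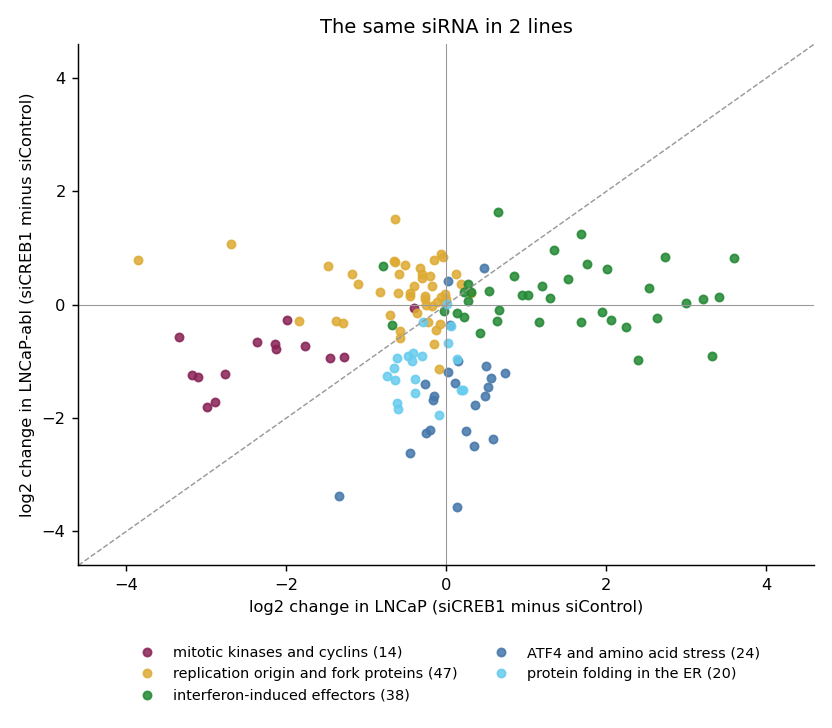
Log2 change with siCREB1 in LNCaP (horizontal axis) and in LNCaP-abl (vertical axis) for the genes of 5 lists, 1 point per gene, with a dashed line where both changes are equal. Most ATF4 and stress genes lie below the line, with medians of 0.12 in LNCaP and -1.61 in LNCaP-abl; the interferon effectors lie mostly to its right, with medians of 1.25 and 0.13.

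Besides DDIT3, the largest differences between the lines among well-expressed genes on the higher side were those of THBS1, ADM2, SLC6A9, SESN2 and SLC1A4, and all 5 fell in LNCaP-abl. ADM2, a peptide of the calcitonin family, was at 39.3 and 40.1 CPM under siControl and 29.5 and 28.7 under siCREB1 in LNCaP (-0.45) and went from 307 and 312 to 27.6 and 23.5 CPM in LNCaP-abl (-3.60). THBS1 (thrombospondin) was at 28.8 and 24.9 CPM under siControl and 32.9 and 30.3 under siCREB1 in LNCaP (0.22, not called) and went from 24.9 and 25.9 to 3.56 and 2.75 CPM in LNCaP-abl (-3.00). On the lower side, CD24, a surface glycoprotein, fell from 78.5 and 84.6 to 54.5 and 43 CPM in LNCaP (-0.74) and rose by 1.92 in LNCaP-abl, and RRM2, the small subunit of ribonucleotide reductase, fell from 17 and 17 to 1.66 and 2.55 CPM and rose from 22.1 and 18.9 to 40.5 and 27 CPM. FAM111B, a protease gene, changed by -1.54 and 1.27. In all, 1672 genes had a more positive change in LNCaP and 2297 a more negative one.

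A large set of genes moved in the same direction in both lines. The comparisons share no library, but the same-numbered siControl libraries of the lines deviated together from their group means (r = 0.519 over 10193 genes), and the tested neutrophil markers summed to 6.21 and 6.45 CPM in library 1 of the LNCaP and LNCaP-abl controls against 1.09 and 1.45 in library 2. The part of this in the shared changes was not tested. Of the 2770 genes that rose in LNCaP, 1773 rose in LNCaP-abl too (64.0% of the LNCaP calls and 41.4% of the LNCaP-abl calls), 191 fell there and 806 were not called. Of the 3076 that fell, 1780 fell in both (57.9% and 48.4%), 295 rose in LNCaP-abl and 1001 were not called. Over all tested genes, 27.5% rose and 23.7% fell in LNCaP-abl, and 17.8% rose and 19.8% fell in LNCaP. By at least 1 on the log2 scale 59 genes rose and 144 fell in both lines, and for 56 and 92 of them the difference between the lines was not called, which does not show that the changes were equal.

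Among these, ARL6IP1, which shapes the tubular endoplasmic reticulum, was at 318 and 312 CPM under siControl and 84.5 and 86.7 under siCREB1 (-1.88 ± 0.06, edgeR adjusted p = 5.21e-10), with -1.72 in LNCaP-abl. C5orf15 went from 182 and 181 to 51.2 and 41.3 CPM (-1.97 and -2.06), EDEM3, which trims sugars from misfolded proteins, from 101 and 93.2 to 25 and 24.8 CPM (-1.96 and -1.89), and DCP2, the mRNA decapping enzyme, from 94.7 and 80.5 to 22.9 and 24.6 CPM (-1.89 and -1.86). A change of at least 1 on the log2 scale in both lines was a condition for naming these 4.

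TGFBR1, the type I receptor of TGF-beta, fell from 35 and 37.5 to 12.2 and 10.4 CPM (-1.68 and -1.71), and LBR, the lamin B receptor, from 54.4 and 59.1 to 20.4 and 20.1 CPM (-1.48 and -1.56). DIO3, MYLIP and NLRC5 were among those that rose in both, with log2 changes in LNCaP-abl of 1.99, 1.10 and 1.07. DIO3 was low in LNCaP-abl, at 0.583 and 0.223 CPM under siControl and 2.79 and 1.34 under siCREB1 (1.99 ± 0.63).

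Androgen-induced genes did not move as one in LNCaP, which here was in serum low in androgen: 11 of 36 tested rose and 7 fell (median 0.02), and in LNCaP-abl 20 rose and 5 fell (median 0.58). The difference was called lower in LNCaP for 15 and higher for 3. In LNCaP the rises and falls were 30.6% and 19.4% of the list, against 17.8% and 19.8% of all tested genes. KLK3 (prostate-specific antigen) had the largest fall of the list in LNCaP, from 70.6 and 73.9 to 16.1 and 27 CPM (-1.74 ± 0.19). ACPP, prostatic acid phosphatase, was at 500.4 and 514 CPM under siControl and 205 and 212 under siCREB1 (-1.28 ± 0.13, edgeR adjusted p = 7.60e-06) and had a log2 change of 0.30, not called, in LNCaP-abl. RAB3B, a secretory GTPase, fell from 83.7 and 69.8 to 43.1 and 47.6 CPM (-0.76). In contrast, ALDH1A3, a retinoic acid-making enzyme, rose from 55.9 and 55.5 to 96.8 and 96.5 CPM (0.80) and TMPRSS2, a membrane protease, from 76.7 and 75.3 to 95.1 and 98.4 CPM (0.35). FKBP5, a chaperone partner of steroid receptors, was at 44 and 51.8 CPM under siControl and 46.4 and 48.5 under siCREB1 (-0.01, not called).

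HOXB13, a prostate homeobox factor, was at 837 and 749.8 CPM under siControl and 738 and 769 under siCREB1 (-0.07, not called). Of 19 tested partner factors and coregulators of steroid receptors 9 fell and 1 rose. ETV1, the ETS factor overexpressed in LNCaP, fell from 436 and 473 to 219.8 and 219 CPM (-1.05 ± 0.11), the co-repressor NCOR1 from 272 and 239.7 to 174 and 199 CPM (-0.46) and the demethylase KDM1A from 131 and 137 to 105 and 106 CPM (-0.35); SPDEF, an epithelial ETS factor, rose from 88.9 and 73.7 to 119.6 and 112 CPM (0.50). Among 18 steroid-metabolising enzymes 2 rose, AKR1C3, from 1.19 and 0.448 to 3.9 and 3.94 CPM (2.10), and SRD5A1 (0.65), and 4 fell, HSD17B11 (-0.66) and the near-identical UGT2B10, UGT2B11 and UGT2B28, whose reads may be shared. UGT2B10 was not called without siControl library 1 or siCREB1 library 2 (log2 change -0.94). UGT2B11 was not called without siCREB1 library 2 (log2 change -0.55). UGT2B28 was not called without siControl library 2 or either siCREB1 library (log2 change -1.15 to -0.87).

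Genes of energy and protein synthesis rose by small steps. Of 76 tested subunits of oxidative phosphorylation 54 rose and 2 fell (median 0.32), against 70 and 0 in LNCaP-abl (median 0.66); the difference between the lines was called lower in LNCaP for 47 of the 76. NDUFA4, a subunit of the respiratory chain, was at 209.6 and 215 CPM under siControl and 339 and 342 under siCREB1 (0.68 ± 0.06, edgeR adjusted p = 1.18e-06), with 1.18 in LNCaP-abl. Of 73 cytosolic ribosomal proteins 43 rose and none fell (median 0.22), a count that became 26 without siCREB1 library 2; in LNCaP-abl 70 rose. RPS27 rose from 717 and 775 to 1366 and 1442 CPM (0.91) and RPL31 from 479 and 603 to 804 and 859 CPM (0.62). Ribosomal protein genes have many processed copies, and how reads were split among them is uncertain. Of 76 mitochondrial ribosomal proteins 38 rose and 6 fell (median 0.23), MRPL34 going from 49.9 and 35.8 to 72.3 and 71.4 CPM (0.73). Of 34 proteasome subunits 4 rose and 3 fell.

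In glycolysis and the hypoxia response 7 of 26 rose and 6 fell, with between 3 and 4 rises in the fit of the 4 libraries alone and without siControl library 1 or either siCREB1 library. The 7 rises and 6 falls are 26.9% and 23.1% of the list, against 17.8% and 19.8% of all tested genes. PGAM1, phosphoglycerate mutase, stood out at 331 and 327 CPM under siControl and 109 and 121 under siCREB1 (-1.52 ± 0.06, edgeR adjusted p = 6.07e-09), against -0.95 in LNCaP-abl and 370.4 and 366 CPM in the LNCaP siFOXA1 libraries. Of the glycolytic enzymes just before and after it, PGK1 was not called (-0.01) and ENO1 fell from 998 and 1029.5 to 752 and 856 CPM (-0.33). ADM (adrenomedullin) fell from 12.8 and 14.8 to 2.5 and 2.63 CPM (-2.42), with -0.21 in LNCaP-abl.

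Cholesterol synthesis and transport genes rose in 14 of 31 cases and fell in 1 (median 0.18). SC4MOL, a sterol oxidase, went from 83.3 and 84.1 to 138 and 137 CPM (0.72) and the regulator SREBF1 from 603 and 491 to 769.6 and 840.2 CPM (0.56). ABCA1, the cholesterol efflux pump, was the gene that fell, from 17.9 and 17.9 to 3.17 and 3.32 CPM (-2.46 ± 0.12), while its relative ABCG1 rose from 33.4 and 30.2 to 56.2 and 50.2 CPM (0.74). Of 18 fatty acid genes 5 rose and 2 fell, the rises being 2 or 3 when any of the 4 libraries was left out; ACSL4, which activates arachidonic acid, fell from 17.1 and 17.9 to 6.7 and 7.33 CPM (-1.31).

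Of 21 ID and BMP signalling genes 5 rose and 7 fell, and the rises were 3 without siControl library 2 and 2 without siCREB1 library 1. The 5 rises and 7 falls are 23.8% and 33.3% of the list, against 17.8% and 19.8% of all tested genes. ID1 and ID3, which block basic helix-loop-helix factors, rose from low levels, ID1 from 0.506 and 0.192 to 12.3 and 3.9 CPM (4.35 ± 1.04, edgeR adjusted p = 0.00498) and ID3 from 2.28 and 1.09 to 44.3 and 22.3 CPM (4.18 ± 0.55). Both siCREB1 libraries lay above both controls, and siCREB1 library 1 was the higher of its pair in both genes. The BMP inhibitors SMAD6 and BAMBI rose (0.73 and 0.54), whereas the BMP receptor BMPR2 fell from 247 and 237 to 165 and 158 CPM (-0.58) and the signal carrier SMAD5 from 139 and 126 to 76.5 and 65 CPM (-0.91). In TGF-beta signalling 7 of 14 fell and none rose (median -0.36): besides TGFBR1, SMAD2 fell from 107 and 103 to 76 and 78.5 CPM (-0.44), SMAD4 from 80.1 and 77.3 to 65.1 and 62.9 CPM (-0.30), LTBP2, a latent TGF-beta binding protein, from 23.7 and 17.8 to 11.1 and 12.5 CPM (-0.83), and TGFBR2, SKIL and TGIF1 by 1.54, 0.56 and 0.47. ID1 was not called without siCREB1 library 1 (log2 change 3.30). SMAD6 was not called without siControl library 2 or either siCREB1 library (log2 change 0.48 to 0.75). TGIF1 was not called without siControl library 1 (log2 change -0.32).

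Among 26 growth arrest and DNA damage genes 5 rose and 7 fell (19.2% and 26.9%, against 17.8% and 19.8% of all tested genes). GADD45A rose from 11 and 10.1 to 21.8 and 19 CPM (0.94), FAS, the death receptor, from 3.54 and 5.25 to 7.81 and 8.1 CPM (0.91), and BAX, PHLDA3 and SESN2 by 0.39, 0.46 and 0.35, while MDM2, a ubiquitin ligase, fell from 155 and 153 to 119 and 119.7 CPM (-0.37). The 5 rises became 8 with the 6 LNCaP libraries alone or with the replicate block, and 3 without siControl library 2 or siCREB1 library 2. In the BCL2 family 6 of 16 rose, 3 when either siCREB1 library was left out, and MCL1 fell (-0.22); PMAIP1 (NOXA) rose from 3.86 and 4.36 to 9.32 and 7.99 CPM (1.09) against a change of -1.27 in LNCaP-abl. Of 28 splicing factors 14 fell and 1 rose, with 8 or 9 falls in the fits of LNCaP libraries alone and without siControl library 2 or siCREB1 library 2; HNRNPA2B1 fell from 557 and 636 to 444 and 427 CPM (-0.45) and HNRNPM from 315 and 287 to 182 and 204 CPM (-0.64). Of 11 long non-coding RNAs 6 rose, SNHG12 the most (0.80), and TUG1 fell (-0.49); MALAT1 was at 366 and 802 CPM under siControl and 498 and 429 under siCREB1, its siControl libraries further apart than the groups, and was not called (-0.33; -0.77 without siControl library 1 and 0.34 without siControl library 2). Lysosome and autophagy genes rose in 10 of 35 cases and fell in 7 (28.6% and 20%, against 17.8% and 19.8% of all tested genes). PHLDA3 and SESN2 were not called without siControl library 2 or siCREB1 library 2 (log2 change 0.26 to 0.42 for PHLDA3, 0.29 to 0.32 for SESN2). MCL1 was not called without siControl library 1 or siCREB1 library 1 (log2 change -0.15 to -0.14). It also lost its call in the fits of the 6 and of the 4 LNCaP libraries alone (-0.20 in both). SNHG12 was not called without siControl library 1 (log2 change 0.57).

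Epithelial identity genes were called in both directions, where 17.8% of all tested genes rose and 19.8% fell. Among the luminal genes the shares were 23.1% and 30.8%. Of 13 luminal genes 3 rose (KRT8 0.29, CLDN4 0.24 and CLDN7 0.25) and 4 fell, EPCAM from 132 and 134 to 92.9 and 90.0 CPM (-0.54), DSP, the desmosome plaque protein, from 544 and 472 to 294 and 351 CPM (-0.66), TJP1 (-0.58) and OCLN (-0.31); CDH1 was not called (0.01). Of 8 tested basal genes 3 fell, ITGA6 (-0.37), ITGB4 (-0.45) and LAMA3 (-0.27). Of 7 mesenchymal genes VIM rose from 60.2 and 49.5 to 81.9 and 73.3 CPM (0.49), TWIST1 rose from 5.09 and 3.4 to 9.28 and 6.49 CPM (0.85) and FN1 (fibronectin) fell from 268 and 227 to 80.3 and 89.3 CPM (-1.55). Of 7 neuroendocrine and neuronal genes DDC fell (-0.66) and the other 6 were not called. KRT8 and CLDN7 were not called without siControl library 2 or siCREB1 library 2 (log2 change 0.15 to 0.24 for KRT8, 0.22 to 0.23 for CLDN7). CLDN4 was not called without siControl library 2 or either siCREB1 library (log2 change 0.15 to 0.28). LAMA3 was not called without siControl library 1 or siCREB1 library 1 (log2 change -0.20 to -0.19). ITGB4 was not called without siControl library 1 or either siCREB1 library (log2 change -0.49 to -0.41). VIM and TWIST1 were not called without siControl library 2 or siCREB1 library 1 (log2 change 0.36 to 0.41 for VIM, 0.57 to 0.63 for TWIST1). DESeq2 did not call VIM (0.52). In the fit of the 4 libraries alone KRT8, CLDN4 and LAMA3 were not called (0.31, 0.26 and -0.26).

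Set directly against siFOXA1 in LNCaP, siCREB1 libraries were higher for 3200 genes (20.6% of those tested) and lower for 3491 (22.5%). TGM3, a transglutaminase, was at 30.8 and 34 CPM under siControl and 30.7 and 34.2 under siCREB1, and at 1.39 and 3.44 CPM in the siFOXA1 libraries (difference 3.72 ± 0.25, edgeR adjusted p = 6.76e-08). TNFRSF19, a receptor of the TNF family, fell with siCREB1 from 439 and 459 to 204 and 212 CPM and stood at 17.1 and 27.5 with siFOXA1, and DDC, which makes dopamine and serotonin, went from 431 and 492 to 284 and 299 CPM and stood at 25.2 and 31.8. On the lower side DAPK1, a death-associated kinase, was at 0.903 and 1.02 CPM under siControl and 0.516 and 0.584 under siCREB1 and at 364 and 345 with siFOXA1, and GAB3 at 1.34 and 1.15 CPM under siControl and 4.27 and 2.99 under siCREB1 and 63.7 and 64.4. All 14 mitotic kinases and cyclins were lower with siCREB1 than with siFOXA1, and 62 of 73 cytosolic ribosomal proteins were higher.

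For siCREB1 in LNCaP, 4593 genes stand in the authors' deposited table, 2326 of them higher and 2267 lower. Of these 4570 were tested here, all 4570 with the sign of the authors' deposited table, and 4452 (97.4%) were called. A further 1394 genes were called here and are not in the authors' deposited table, and 76.2% of the calls made here are in it.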

How the data were processed

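RNA of 12 libraries was sequenced after a TruSeq RNA v2 preparation, per the labels' protocols, a kit without strand information, so reads of overlapping or antisense genes cannot be told apart. The values the authors deposited and that are used here are whole-number counts per gene, for which the submitters' processing notes name hg19 as the build and HTSeq 0.5.3p9, Bowtie2 2.1.0 and TopHat2 2.0.8 as tools. The authors' deposited table of log2 fold changes and p-values, made with edgeR 3.0.6 per the same notes, was used only for the comparison named with it.

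The 5 lines that name no gene were dropped (ambiguous reads 0.812 to 0.871% and no_feature 54.8 to 56.9% of counts in the 4 libraries compared). The header code SIC was read as siControl. The 8 control columns repeated in other tables were identical and were used once. Replicate libraries differed by more than sampling noise (chi-square per degree of freedom 10.19 for siControl and 7.307 for siCREB1). All 12 libraries, 2 in each of 6 groups, entered 1 edgeR 4.0.16 quasi-likelihood fit (R 4.3.3, limma 3.58.1) with TMM scaling and edgeR's filter on low counts, which kept 15550 of 23230 genes (66.9%), with 6 residual degrees of freedom. p-values were Benjamini-Hochberg adjusted over all tested genes and called under 0.05. CPM are counts per 1000000 of the TMM-scaled library size. DESeq2 1.42.0 and the other alternatives are given in the closing section.

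Genes named were CREB1, the 12 largest changes each way (called, groups not overlapping, average level of 3 or more in log2 CPM), the 6 largest each way for the differences between lines and between siRNAs, the 4 largest of each gene list, and list members described by their role; some genes that this rule names are not reported here. The members and lists were chosen with earlier results of these data known. Promoter windows and coordinates come from RefSeq on GRCh38.p14, matched by symbol for 75.4% of tested genes, and are not compared with hg19 positions. Peak lists were not used here. The precision of a count is limited by depth, 15200856 to 27555950 counts per library among the 4 compared, and intervals cover counting error only.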

Additional observations from a re-analysis of the deposited data

Results flagged for a closer look

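The change with siCREB1 differed between LNCaP and LNCaP-abl, by a test of the difference itself (edgeR quasi-likelihood, adjusted over all tested genes), for 1672 genes in the higher direction in LNCaP and 2297 in the lower. The 6 largest differences on the higher side among well-expressed genes, as the LNCaP change minus the LNCaP-abl change on the log2 scale, were 3.23 for THBS1, 3.15 for ADM2, 2.95 for DDIT3, 2.91 for SLC6A9, 2.84 for SESN2 and 2.82 for SLC1A4. On the lower side they were -3.69 for RRM2, -3.10 for DLGAP5, -2.82 for FAM111B, -2.78 for PBK, -2.66 for CD24 and -2.52 for CDC20. DLGAP5, PBK and CDC20 are mitosis genes, and RRM2 makes deoxynucleotides for replication. With 2 libraries in each group no group could be searched for a library far from the others.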

How the results depend on the processing

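The counts of called genes kept within 1.5 times of the reported ones, and the fall of CREB1 kept its call, under DESeq2, RLE scaling, no filter, a stricter filter, the fits of 6 and of 4 libraries, the replicate block and each left-out library. Calls in LNCaP numbered 4919 with DESeq2, 5843 with RLE scaling, 5306 with the 6 LNCaP libraries and 4424 with the 4 libraries compared, and 4315 to 5024 with 1 library left out; CREB1 then ranged from -1.48 to -1.10. Leaving out 1 library keeps 1 in a group, which is then assumed to vary like the others.

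Of the alternatives for 359 named gene results, 3733 gave the same call, 230 lost it, 12 gained one and 1 reversed, MALAT1, at 0.34 without siControl library 2 (-0.33 with all, -0.77 without siControl library 1). Counted by result, 79 of the 359 lost, gained or reversed a call under at least 1 alternative. A result not called in either fit counts as the same call. Library numbers stand only in the column headers, and same-numbered libraries deviated from their group means with correlations of -0.165 (siControl with siCREB1), -0.141 (siControl with siFOXA1) and 0.33 (siCREB1 with siFOXA1) in LNCaP, 0.082 (siControl with siCREB1) in LNCaP-abl and 0.519 between the controls of both lines, over 10193 genes. Neither labels nor headers say what a number marks, and the libraries were not taken as pairs. With the replicate block 5975 genes were called in LNCaP, 4101 for the difference between lines and 6810 against siFOXA1. The block also gave calls to FOS (-0.89), SKA2 (-0.30) and CDKN1A (0.48).

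In the 250 bases before the start alone, the CHR was in 14.6% of all promoters, 9.91% of those of tested genes, 11.5% of those of genes that fell and 47.5% of those of mitosis genes, the core TGACG in 21.7% of all, 28.6% of tested genes, 29.4% of genes that rose and 29.9% of genes that fell, the cAMP response element in 1.77%, the E2F-like core in 3.98% and the ISRE core in 3.07% of all promoters; the shorter window holds fewer letters. CREB1 binding near gene starts, with its wider and narrower windows and its stricter peak threshold, was not run. Genes below the count filter were not tested.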
